A study of Mus musculus with 2 samples.

Results

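The contractile genes of airway smooth muscle were followed in mouse embryonic lung at E13.5, in 1 wild type pool and 1 pool whose label names an Etv4;5 knockout. Etv4 and Etv5 encode ETS family transcription factors of the distal lung epithelium. The genes are Acta2, Tagln, Myh11, Cnn1, Myocd, Des, Actg2, Mylk, Lmod1 and Synpo2. They were taken by symbol: each was represented by the probe set that the platform annotation pairs with that symbol alone. All 10 were found among 19938 genes so named, and each had 1 such probe set, none of it shared with another symbol. The wild type group carries no stated allele, and the knockout is abbreviated CKO in one label and DKO in another. No Cre line, promoter, deleted exon or embryo sex was stated in the sources used here, so which lung cells lost the genes is not known. RNA of 3 samples per group was pooled in equal amounts, and 1 Affymetrix array was hybridised per pool.

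With 1 array per group there is no spread between samples. No p-value, SD or SE is given, precision is limited by the number of arrays, and each difference compares these 2 pools only. Differences are given as log2 values, with the wild type value subtracted from the knockout value. The log2 scale was inferred from their range of 2.72 to 14.4 in wild type and 2.69 to 14.4 in knockout. A gene is called measured when the brighter of its 2 values reached the median of its array (7.60 in wild type, 7.58 in knockout), which 11045 genes did. Lower and higher stand for a difference of any size in the knockout pool, and genes that differed by at least 1.2-fold are counted separately. The median difference of all measured genes was 0, the central 95% lay between -0.22 and 0.20, and 27.3% had exactly equal values on both arrays. Across 618 genes read by 2 probe sets, the differences from both probe sets lay a median of 0.043 apart, and at the 90th percentile 0.18 apart.

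Airway smooth muscle forms from lung mesenchyme as a sleeve around the growing bronchial tubes, at a distance from the budding tips, and contracts rhythmically before birth. Its contractile machinery consists of smooth muscle actins that slide along smooth muscle myosin, of proteins that anchor and stabilise actin filaments, and of the kinase that switches myosin on. Most of these genes are switched on by serum response factor (SRF) with its coactivator myocardin, and SRF binds DNA at the CArG box. Sonic hedgehog made by the epithelium is known to promote the formation of this muscle. The same contractile genes are also expressed in vascular smooth muscle, and several appear in the early heart and in myofibroblasts, so whole-lung RNA does not separate these sources.

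Because the genes share known regulators, their promoters were set side by side. RefSeq promoter windows (build GRCm38.p6, 250 bases before to 50 bases after the start) were matched for 6 of the 10 genes: Acta2, Cnn1, Des, Lmod1, Mylk and Synpo2. Tagln, Myh11, Myocd and Actg2 were not matched. The last 160 bases before the start are printed for 4 genes. Acta2 is shown because it alone of the 6 carries CArG-like elements. Synpo2 and Cnn1 are shown as the lowest of the matched genes in the knockout pool, and Mylk because its value was equal on both arrays. Mylk has several forms, described below, and which of them starts at this window was not known here. Capitals mark the motif matches described next.
Acta2, chr19:34255374-34255533, minus strand: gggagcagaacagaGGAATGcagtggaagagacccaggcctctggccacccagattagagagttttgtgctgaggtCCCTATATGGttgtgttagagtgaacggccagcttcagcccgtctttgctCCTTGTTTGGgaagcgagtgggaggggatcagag
Synpo2, chr3:123236150-123236309, minus strand: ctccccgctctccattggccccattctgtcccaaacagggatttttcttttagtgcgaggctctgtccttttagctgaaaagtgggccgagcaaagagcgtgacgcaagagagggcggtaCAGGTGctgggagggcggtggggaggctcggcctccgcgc
Cnn1, chr9:22099093-22099252, plus strand: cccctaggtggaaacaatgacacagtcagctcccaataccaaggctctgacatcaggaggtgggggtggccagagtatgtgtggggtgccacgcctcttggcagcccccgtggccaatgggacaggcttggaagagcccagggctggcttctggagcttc
Mylk, chr16:34784790-34784949, plus strand: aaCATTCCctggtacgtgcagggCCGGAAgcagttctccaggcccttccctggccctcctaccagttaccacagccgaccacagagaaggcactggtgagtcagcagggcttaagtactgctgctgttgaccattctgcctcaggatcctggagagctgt

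The full windows were searched on both strands. A full CArG box, which is CC, 6 bases of A or T, and GG, and which reads the same form on either strand, was found in 0 of the 6 windows and in 1.63% of all 32851 windows. A CArG-like element with G or C at exactly 1 of the 6 inner bases was found in 1 of the 6 windows, that of Acta2, and in 8.50% of all windows. Acta2 held it at both of the long capital stretches above, which begin 84 and 34 bases before the start. The MCAT element CATTCC, a site form read by TEAD factors, was found in Acta2, Lmod1 and Mylk, 3 of the 6, against 14.7% of all windows. An ETS form, CCGGAA, the kind of sequence that Etv factors bind, was found in Mylk only, against 14.9% of all windows. The E box CANNTG was in 5 of the 6 and in 72.3% of all windows, and the TATA box TATAAA in Synpo2 alone, 233 bases before the start, against 13.6% of all windows. These are matches of letters and no measurement of binding. The short windows do not cover distal or intronic elements.

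Of the 10 contractile genes, 9 were measured, 8 of those were lower in the knockout pool, 1 was equal and 0 were higher. For comparison, 47.0% of all measured genes were lower by any amount. The median difference of the 9 was -0.22, and 2.46% of measured genes had a difference that low or lower. At least 1.2-fold lower were 3 of the 9 (Synpo2, Myocd and Cnn1), where 1.53% of all measured genes were. None of the 9 was at least 1.2-fold higher, where 1.39% of all measured genes were. A set of 6113 measured genes had wild type values in the same range as these 9, from 9.16 to 13.1. Of that set, 54.6% were lower by any amount and 1.24% at least 1.2-fold lower, and its median difference was -0.0081. The genes were selected with earlier results of these arrays known, so these counts describe them and are not a test. In whole lung, fewer muscle cells and less RNA per muscle cell cannot be told apart.

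**Figure D1:**
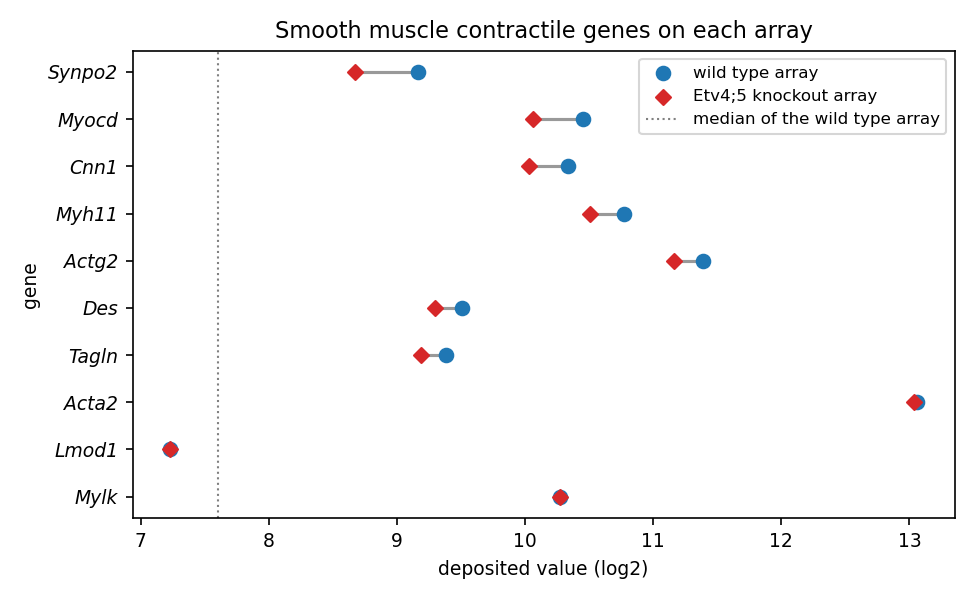
Deposited log2 value (x axis) of each of the 10 contractile genes (y axis) on the wild type array (circles) and the knockout array (diamonds), ordered by difference, with no error bars because each group is 1 array. The knockout value lies to the left for 8 genes and on the wild type value for Mylk and Lmod1, and Lmod1 lies below the array median (dotted line).

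The filament proteins of the contractile apparatus were lower by different amounts. Acta2, which encodes smooth muscle alpha-actin and is a widely used marker of this muscle, read 13.06 in the wild type pool against 13.03 in the knockout pool, differing by -0.03 (1.02-fold). Actg2, the smooth muscle gamma-actin of visceral muscle, was at 11.39 and 11.16, a difference of -0.22 (1.17-fold). The 2 smooth muscle actins differed between the pools by unlike amounts, and Acta2 stood at rank 3797 of 11045 from the lowest difference while Actg2 stood at rank 272. Myh11, the smooth muscle myosin heavy chain and a marker of mature smooth muscle, read 10.77 in the wild type pool against 10.51 in the knockout pool, differing by -0.26 (1.199-fold). It was just short of the 1.2-fold limit and held rank 173. Des, which encodes the intermediate filament protein desmin, was at 9.50 and 9.29, a difference of -0.21 (1.16-fold).

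Actin-binding proteins included the lowest member. Synpo2, which encodes synaptopodin 2 (myopodin), an actin-bundling protein of muscle, read 9.16 in the wild type pool against 8.67 in the knockout pool. Its difference of -0.49 (1.40-fold) held rank 30 of 11045. Cnn1, which encodes calponin 1, an inhibitor of the myosin motor that marks differentiated smooth muscle, was at 10.34 and 10.03, a difference of -0.31 (1.24-fold, rank 99). Tagln, which encodes transgelin (SM22 alpha), an actin-crosslinking protein, was at 9.38 and 9.19, a difference of -0.19 (1.14-fold, rank 394). Lmod1, which encodes leiomodin 1, a nucleator of actin filaments in smooth muscle, was at 7.23 on both arrays, below both array medians, and did not count as measured.

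The coactivator was lower and the kinase was equal. Myocd, which encodes myocardin, read 10.45 in the wild type pool against 10.06 in the knockout pool, differing by -0.39 (1.31-fold, rank 52). Mylk, which encodes myosin light chain kinase, was at 10.27 on both arrays. Exact equality of this kind held for 3016 measured genes, and the processing that produced it was not stated in the sources used here. Mylk also gives rise to a long non-muscle form and to the short protein telokin, and its 1 probe set does not say which of them it read. Across the measured contractile genes the differences therefore ran from -0.49 for Synpo2 to 0 for Mylk. Between -0.31 and -0.19 lay 5 genes (Cnn1, Myh11, Actg2, Des and Tagln).

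**Figure D2:**
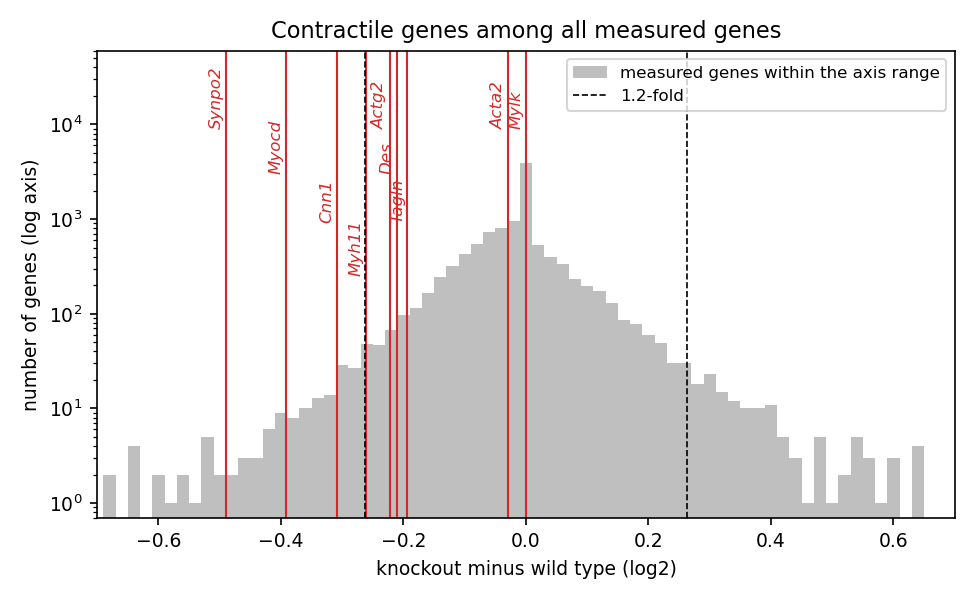
Distribution of knockout minus wild type differences (x axis, log2) over measured genes as counts on a log axis, shown between -0.7 and 0.7, with the 9 measured contractile genes as red lines and the 1.2-fold limits dashed. Synpo2, Myocd and Cnn1 lie beyond the lower limit, Myh11 lies at it, and Acta2 and Mylk lie at the centre.

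Relatives of these genes in non-muscle cells or in striated muscle served as a comparison within each protein family. Of 20 listed relatives 19 were matched and 13 measured: 4 were lower, 6 higher and 3 equal, and 0 differed by 1.2-fold. Their median was 0. Beside Myh11 (-0.26), the non-muscle myosin heavy chains Myh9 (10.93 and 11.00) and Myh14 (7.89 and 8.14) differed by 0.08 and 0.24, and Myh10 was at 12.01 on both arrays. Beside Cnn1 (-0.31), Cnn2 (11.58 and 11.54) differed by -0.04. Cnn3 (-0.0062) was slightly higher, in place of lower, under each of 3 other scalings. Beside Tagln (-0.19), Tagln2 (11.66 and 11.71) differed by 0.05 and Tagln3 (8.04 and 7.92) by -0.13. Beside Myocd (-0.39), the related SRF coactivators Mrtfa (8.97 and 9.08) and Mrtfb (10.46 and 10.48) differed by 0.11 and 0.02. Vim, the intermediate filament of mesenchymal cells, differed by -0.08, beside -0.21 for Des. Of the striated muscle and cytoplasmic actins, Acta1 was at 8.34 and Actb at 14.06 on both arrays, and Actc1 was at 11.44 on both to 2 decimals. Actin genes are very alike in their coding sequence, and which bases the probe sets cover was not known here, so values within this family may share signal between genes.

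**Figure D3:**
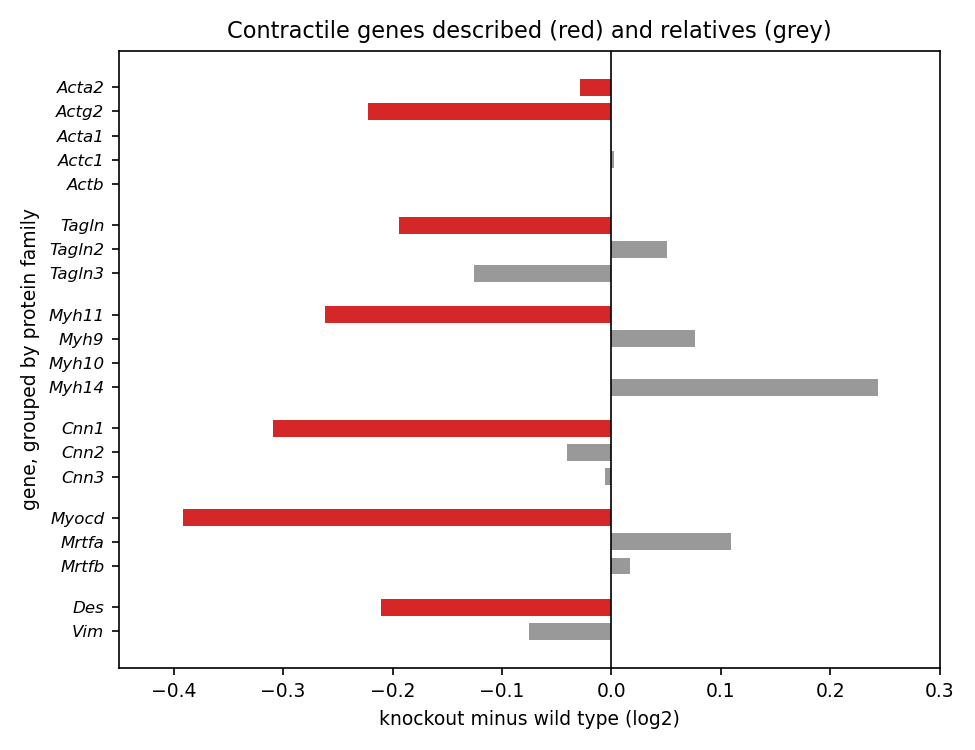
Knockout minus wild type difference (x axis, log2, bars from 0) of contractile genes (red) and their relatives (grey), grouped by protein family. In the transgelin, myosin, calponin, myocardin and intermediate filament groups the red bar reaches furthest to the left, while Acta2 (-0.03) lies near the other actins and Actg2 at -0.22; genes without a visible bar were equal or nearly equal on both arrays.

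The rest of the contractile apparatus was described from a list of 35 further genes, of which 34 were matched and 33 measured. Of the 33, 20 were lower, 7 higher and 6 equal. The median was -0.03, beside 0 for all measured genes. Under quantile scaling it turned to 0.00065, beside 0.015 for all measured genes, so the sign of the list median depends on the scaling. At least 1.2-fold lower were 3 of 33, beside 1.53% of all measured genes, and 0 were higher by that much, beside 1.39%. Pdlim3, which encodes a PDZ and LIM protein of the actin-anchoring Z disc, read 9.17 in the wild type pool against 8.53 in the knockout pool, differing by -0.64 (1.56-fold). Synm, which encodes synemin, a partner of desmin, was at 8.22 and 7.81 (-0.41). Tpm2, the beta-tropomyosin of smooth muscle, was at 9.68 and 9.39 (-0.30). Among the lower genes short of 1.2-fold, the regulatory myosin light chain Myl9 was at 11.58 and 11.34 (-0.24) and caldesmon, Cald1, at 11.07 and 10.89 (-0.18). Some broadly expressed parts of the cytoskeleton had values closer to 0. Tpm1 differed by 0.05, Flna (filamin A) by 0.02 and Actn1 (alpha-actinin 1) by -0.05, and Myl6, Lpp and Dstn were equal. Vcl, which encodes vinculin, differed by -0.10. The list did not divide cleanly into lower muscle genes and unchanged broad genes. Smtn differed by -0.09, Csrp1 was equal, and Itga8 and Jph2 differed by 0.08 and 0.13, while Nexn differed by -0.21.

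Receptors, channels and signalling proteins that set smooth muscle tone went both ways. Of 30 listed genes 25 were matched and 20 measured: 12 were lower, 5 higher and 3 equal, with a median of -0.04. At least 1.2-fold lower were 3 of the 20, beside 1.53% of all measured genes, and 3 were at least 1.2-fold higher, beside 1.39%. Chrm3, which encodes the muscarinic receptor through which acetylcholine contracts airway muscle and which is also found in epithelia, read 8.33 in the wild type pool against 8.98 in the knockout pool, differing by 0.65 (1.57-fold). The calcium-activated chloride channel Ano1, known in both airway epithelium and airway muscle, was at 9.65 and 10.02 (0.37). The angiotensin receptor Agtr1a was at 7.96 and 8.29 (0.33). The other muscarinic receptor of airway muscle, Chrm2, was at 8.89 and 8.84 (-0.04), unlike Chrm3. The endothelin receptor Ednrb was at 10.88 and 10.39 (-0.49), the G protein regulator Rgs5 at 9.03 and 8.61 (-0.42) and the leukotriene receptor Cysltr1 at 7.73 and 7.36 (-0.37). Cysltr1 and Kcnmb1 (7.64 and 7.41) lay below the array median in the knockout pool. Both counted as measured only through the wild type pool. In the cyclic GMP pathway, which relaxes smooth muscle, Gucy1b1, Prkg1, Pde5a and Gucy1a1 differed by -0.19, -0.18, -0.17 and -0.08.

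Regulators of the contractile genes other than Myocd went both ways. Of 19 listed factors 18 were measured: 7 were lower, 5 higher and 6 equal, with a median of 0. Srf itself read 10.07 in the wild type pool against 9.99 in the knockout pool, differing by -0.08 (1.06-fold). Only Foxf1, a mesenchymal factor downstream of Hedgehog signalling, was at least 1.2-fold lower among the 18, at 12.65 and 12.26 (-0.40). Klf5, which is expressed in epithelium as well as in smooth muscle, was at 9.38 and 9.78 (0.40). It was the only one at least 1.2-fold higher. Of all measured genes, 1.53% were lower and 1.39% higher by that much. Tead1, a reader of the MCAT element, differed by -0.11, and Gata6 by 0.05. Mef2c, Yap1 and Klf4 were equal on both arrays.

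Signals known for the formation of airway muscle were more often lower than higher, as were measured genes in general (5193 lower, 2836 higher). All 25 listed genes were measured: 19 were lower, 4 higher and 2 equal, with a median of -0.10. At least 1.2-fold lower were 5 of 25, beside 1.53% of all measured genes, and 1 was higher by that much, beside 1.39%. On the Hedgehog axis the ligand Shh was at 9.52 and 9.11 (-0.41), the receptor Ptch1 at 12.05 and 11.58 (-0.47) and the inhibitor Hhip at 10.57 and 10.05 (-0.52). Both Ptch1 and Hhip are also targets of the pathway. The other listed genes of this axis differed less: Gli1 by -0.14, Smo by -0.08, Gli2 by -0.03 and Gli3 by -0.03. Wnt5a and Wnt2 were at 8.32 and 7.98 (-0.35) and at 10.35 and 10.04 (-0.31). Fgf10, the ligand of the distal mesenchyme, was at 9.84 and 10.24 (0.40). Bmp4 and Tgfb3 were equal on both arrays, and Lgr6, a receptor that marks airway smooth muscle, was at 8.71 and 8.82 (0.11), opposite in sign to the contractile genes.

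**Figure D4:**
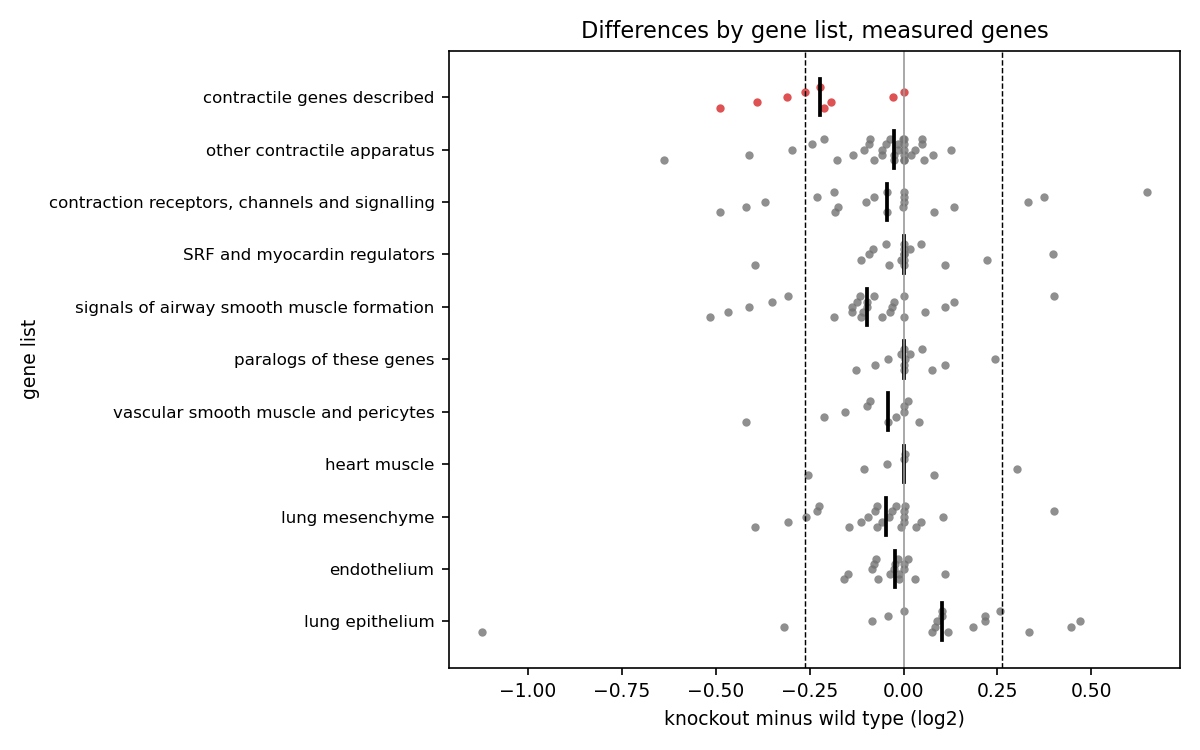
Knockout minus wild type difference (x axis, log2) of each measured gene (points) by gene list (y axis), with the list median as a black bar and the 1.2-fold limits dashed; points are offset vertically only for visibility. The contractile genes (red) have a median of -0.22, the other contractile genes -0.03, the signals of airway muscle formation -0.10 and the lung epithelium genes 0.10.

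Markers of other cells were read beside these values. For their counts at 1.2-fold, the shares of all measured genes were 1.53% lower and 1.39% higher. Among vascular smooth muscle and pericyte genes, 11 of 15 were measured, with 7 lower, 2 higher and a median of -0.04. Rgs5 (-0.42) was the only one at least 1.2-fold different, Des and Rgs5 are on other lists here too, and Notch3 and Kcnj8 were equal. Heart muscle genes, which would be brought by attached heart tissue, were measured in 7 of 20 cases, with 3 lower, 3 higher and a median of 0. Of the heart genes, Myh6, Myl2, Tnni3 and Nppa lay below the median on both arrays. Above it on both were, among others, Actc1 (11.44 on both), Myl4 (9.44 and 9.33), Tnnt2 (8.58 and 8.54) and Nkx2-5 (8.20 on both). Myl7 was at 8.50 and 8.25 (-0.25), and Myh7 was at 7.34 and 7.65 (0.30), the 1 heart gene at least 1.2-fold different. Myh7 lay below the array median in the wild type pool and counted as measured only through the knockout pool. Skeletal muscle genes were measured in 3 of 20 cases, with a median of 0.03 (Tnnt3 at 0.11, Tnni2 at 0.03), and Myod1, Myog and Myf5 did not count as measured. Lung mesenchyme genes had a median of -0.05 (24 of 25 measured, 16 lower and 5 higher). At least 1.2-fold lower were 2 of them, Foxf1 (-0.40) and Wnt2 (-0.31), and 1 was higher by that much, Fgf10 (0.40). Osr1 (-0.26), Foxf2 (-0.23) and Meox2 (-0.23) fell short of 1.2-fold, with differences in the range of the contractile genes. Endothelial genes had a median of -0.02 (17 of 17, 12 lower and 3 higher, with Flt4 at -0.16 and Sox17 at -0.15).

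Lung epithelial genes had a median of 0.10 (18 of 18, 4 lower and 13 higher). Elf3 (7.50 and 7.75), 1 of the 13, lay below the array median in the wild type pool. It counted as measured only through the knockout pool. Of the 18, 2 were at least 1.2-fold lower, Sftpc (-1.12) and Sox9 (-0.32), beside 1.53% of all measured genes. At least 1.2-fold higher were 3, the keratin genes Krt18 (0.47), Krt19 (0.45) and Krt8 (0.33), beside 1.39%. Mesothelial genes had a median of 0.05 (9 of 11, 2 lower and 5 higher), with Krt19, listed there too, as the 1 gene past 1.2-fold. Cartilage genes, which mark the trachea, had a median of 0 (9 of 13, 2 lower and 3 higher), and Cnmd was at least 1.2-fold lower (-0.41). Cnmd lay below the array median in the knockout pool and counted as measured only through the wild type pool. Genes of oesophagus and stratified epithelium were measured in 1 of 9 cases (Sox2, 0.07). Neuronal and glial genes were measured in 4 of 13 cases, with 2 lower, 1 higher and 1 equal (Stmn2 at -0.20, Ret at 0.14). Erythroid genes had a median of -0.24, but only 5 of 16 were measured (Slc4a1 at -0.26, Hba-x at -0.25). Leukocyte genes had one of -0.10 (8 of 12, 7 lower, with Mrc1 at -0.17 and Csf1r at -0.15). Ubiquitous genes had a median of 0 (13 of 16, none at least 1.2-fold different, with Tbp at -0.12 and B2m at -0.09). The part of cell makeup in the contractile gene differences was not tested.

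The pools also differed in the targeted genes and in sex-linked genes. Etv5 read 11.51 in the wild type pool against 11.28 in the knockout pool (-0.23), and Etv4 at 7.59 and 6.96 (-0.63), below the limit for measured genes, while the related Etv1 differed by 0.03; where their probe sets lie relative to the deletion is not known. Xist was at 12.34 and 5.74 and the Y-linked Uty at 8.99 and 9.64, with Eif2s3y and Kdm5d higher by 0.53 each, so the sex makeup of the pools differed. Its part in the contractile gene values was not tested, and it cannot be told apart from genotype with these 2 arrays.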

How the data were processed

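Per the labels' protocols, total RNA of embryonic lung was biotin-labelled for Affymetrix arrays. The authors deposited 35557 probe set values per array, taken here as log2 values from their range, and how they were summarised and normalized before deposit is not given in the sources used here. Names came from the annotation of the array platform (21789 with 1 symbol, 1621 with several, 12147 with none), and the probe set with the highest mean of both arrays stood for a gene. No floor or offset was used. The contractile genes, the 21 gene lists (314 of 335 genes matched) and the 1.2-fold limit were chosen with earlier results of these data known. Named from each list were the measured genes at least 1.2-fold different (at most 6), otherwise the 2 with the largest difference, with further members chosen after their values were seen. With 1 array per group no test was run, and precision is limited by the number of arrays. Alternatives were other scalings, the mean over probe sets, other level filters, a floor and other fold limits. The code for counts, medians and scalings was checked on planted differences of known size, which says nothing about chance. Tools were Python 3.11.15 with pandas 2.3.3 and numpy 2.4.6, the loess of statsmodels 0.14.6, and matplotlib 3.10.9 for plots.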

Additional observations from a re-analysis of the deposited data

How the results depend on the processing

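No paired analysis was possible because each group has 1 array, and for the same reason no array could be left out. Over the 3 other scalings, the mean over probe sets, the filters and the floor, the median of the contractile genes lay between -0.22 and -0.20. Under these settings 3 of them were at least 1.2-fold lower, except that the filter at the 75th percentile left 8 measured, without Synpo2, and 2 lower. Each of Synpo2, Myocd, Cnn1, Myh11, Actg2, Des, Tagln and Acta2 kept its sign wherever it was measured. Mylk, equal as deposited, came to at most 0.03 under another scaling. At 1.1-fold, 7 contractile genes were lower (7.50% of all measured genes) and at 1.5-fold 0 were (0.163%). At 1.1-fold the counts were also 6 lower for the other contractile genes, 2 higher for the regulators and 7 lower for the receptors. At 1.5-fold they were 1 lower for the other contractile genes, 0 lower and 0 higher for both regulators and signals, and 0 lower and 1 higher for the receptors. With the filter at the 75th percentile, 1 other contractile gene was lower, and 1 receptor gene was lower and 1 higher, from 29 and 8 measured genes. These follow from another limit or from fewer genes. Equal medians moved the median of all measured genes to 0.017 and the share of lower genes from 47.0% to 39.3%. Of 191 list genes with a difference, 14 changed sign under a scaling, all with differences of 0.026 or less in size. Lmod1, below the level filter, is the member that dim signal limits most.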

Other observations

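These genes were picked after their values were seen. The microRNA pair miR-143 and miR-145 is made from a shared precursor and is abundant in smooth muscle, where it favours the contractile state. The probe set annotated to Mir145a read 9.48 in the wild type pool against 9.03 in the knockout pool, differing by -0.45, whereas that annotated to Mir143 was at 7.83 on both arrays. Whether these probe sets read the precursor or the mature form was not known here. Pcp4, which encodes a calmodulin-binding peptide, was at 8.89 and 8.37 (-0.52), and Tgfbr3, the co-receptor betaglycan, was at 9.46 and 8.82 (-0.64).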
